A study of Homo sapiens with 8 samples.

Results

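LSD1 summits were examined in the zinc finger gene clusters of human chromosome 19, a short-arm stretch at chr19:19800000-24300000 and a long-arm stretch at chr19:52300000-53900000, both in hg19. A summit is the single base of highest signal in a peak. Summits of the 4 LSD1 lists were joined into 1 region as long as the next one followed within 500 bp, and the members are the regions that lie within these bounds. There were 88 such regions, made of 317 summits, among 68148 regions and 201525 summits on chromosomes 1 to 22 and X. The short-arm stretch of 4.5 Mb held 44 of them and the long-arm stretch of 1.6 Mb held the other 44. The rule uses positions and no measured value, but the bounds were proposed with earlier results of these data known.

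The cells were MDA-MB-231, a human breast cancer line, grown in DMEM with fetal bovine serum. Parental cells were compared with RCOR2-KO1 cells, in which RCOR2, a scaffold of the CoREST family that holds LSD1 and the histone deacetylases HDAC1 and HDAC2 together, had been targeted with CRISPR/Cas9. Each genotype was represented by 2 libraries of CUT&RUN, an assay in which a nuclease tethered by an antibody, here against LSD1, cuts out the chromatin around the bound protein. Another 4 libraries made with rabbit IgG were the input of the peak calls, and no value here comes from them. A summit list holds no measure of RCOR2 itself, so the knockout was not checked in these data, and KO1 stands for 1 line whose number of clones is not given plainly in the sources used here. The libraries of a genotype are repeats of the assay, and a p-value therefore measures only the spread between these libraries.

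Zinc finger genes of the KRAB family lie in tandem arrays on chromosome 19 that arose by repeated gene duplication. Most encode a KRAB domain, which binds the corepressor TRIM28 (KAP1), and a row of zinc fingers that reads DNA, often within transposable elements. ZNF91 and ZNF93, for example, are known to repress families of retrotransposons in primates. The arrays themselves are known for broad H3K9me3 over the 3′ parts of the genes, while their promoters can stay open. LSD1 (KDM1A) removes methyl groups from mono- and dimethylated H3K4, marks of enhancers and promoters, and works in the CoREST complex.

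The gene content of the stretches was read as an order of names from the RefSeq annotation of GRCh38.p14, since no annotation of hg19 was used here. From ZNF253 to ZNF254 on the short arm, 34 of 36 protein-coding genes carried a ZNF symbol, ZNF93, ZNF43, ZNF208 and ZNF91 among them. From ZNF577 to ZNF813 on the long arm it was 39 of 46, among them ZNF649, ZNF28, ZNF468 and ZNF160, with read-through entries counted. Over the whole chromosome, 250 of 1451 protein-coding genes had such a symbol. The rest of chromosome 19 thus holds many further ZNF genes, and it is not a comparison free of them. These gene stretches need not match the bounds exactly, and no region is assigned to a gene.

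LSD1 regions were sparser in the short-arm cluster than in the long-arm cluster. In the short-arm cluster the number of regions with a summit per Mb was 8.67 and 8.89 in parental replicates 1 and 2, and 8.89 and 9.11 in KO1 replicates 1 and 2. In the long-arm cluster it was 24.4, 26.3, 25 and 22.5 per Mb in the same order of libraries, which is kept for all lists of 4 values that follow. The clusters did not overlap in any library, and the long-arm cluster was 2.76 times as dense (range 2.47 to 2.95, n = 4 libraries; exact permutation by sign flips over the libraries, two-sided, p = 0.125, below which 4 libraries cannot go).

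Both clusters held fewer regions per Mb than the rest of chromosome 19. The rest of the chromosome, 48.8 Mb from its first to its last summit without the clusters and without its longest summit-free stretch, held 35.3, 40.7, 34.0 and 34.1 regions per Mb. The density of both clusters together, 12.8, 13.4, 13.1 and 12.6 per Mb, was 0.362 of this (range 0.330 to 0.386, lower in 4 of 4 libraries). For the short-arm cluster the ratio was 0.247 (range 0.218 to 0.267) and for the long-arm cluster 0.682 (range 0.645 to 0.736). Each was lower in 4 of 4 libraries with an exact permutation p of 0.125. The short-arm length includes a stretch of 1198 kb in which no list had a summit.

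Chromosome 19 is rich in LSD1 regions as a whole, and the clusters stood on different sides of the other chromosomes. Those held 16.6, 19.1, 17.4 and 17.6 regions per Mb. Against this, the short-arm cluster reached a ratio of 0.504 (range 0.466 to 0.523) and the long-arm cluster a ratio of 1.39 (range 1.28 to 1.47), both with an exact permutation p of 0.125.

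**Figure D1:**
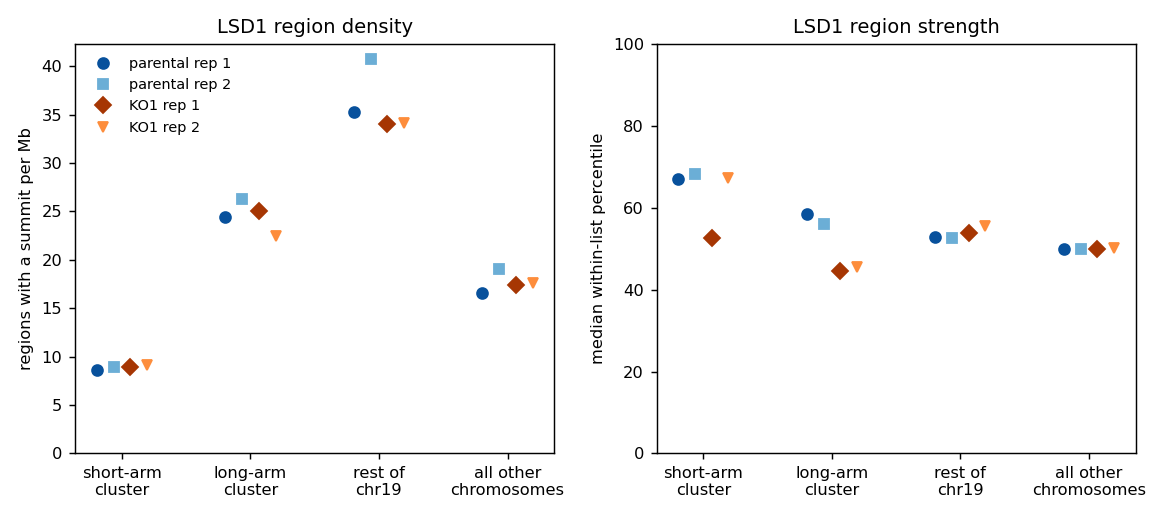
LSD1 regions with a summit per Mb (left) and the median within-list percentile of their summits (right, 100 is the strongest) in the short-arm cluster, the long-arm cluster, the rest of chromosome 19 and the other chromosomes, with 1 point per library. The density of the long-arm cluster lies between 22.5 and 26.3 per Mb and that of the short-arm cluster between 8.67 and 9.11, and the KO1 medians of the long-arm cluster lie below both parental ones.

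The short-arm bounds coincide with a steep step in density on their left side. The 1 Mb just before the short-arm cluster held 36, 41, 37 and 36 regions in the 4 libraries, and the density inside was 0.237 of that (range 0.217 to 0.253, exact permutation p = 0.125). On the right side there was no summit to compare with. The last short-arm region ended at chr19:24269959 and the next summit of any list was at chr19:28284735, so that the right 1 Mb lay inside a summit-free stretch of 4015 kb, the longest of the chromosome. Whether reads can be placed in this stretch was not examined, so it is not read as an absence of LSD1. The neighbours just inside and outside the bounds were of mixed strength. The region before the left bound, chr19:19779612-19779672, had percentiles of 24.0, 57.1, 52.1 and 64.8, and the first inside, chr19:19843926-19843975, had 46.0, 55.7, 36.2 and 59.4.

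Around the long-arm cluster the step went in opposite directions on the left and on the right. The left 1 Mb held 17, 20, 15 and 15 regions, fewer than the cluster, whose density was 1.47 times as high (range 1.31 to 1.67). The right 1 Mb held 31, 35, 29 and 28 regions, more than the cluster, whose density was 0.799 of it (range 0.750 to 0.862). Both orders held in 4 of 4 libraries, with an exact permutation p of 0.125. The regions just outside were weaker than those just inside, and each was absent from at least 1 KO1 list. The last region before, chr19:52288199-52288377, had percentiles of 22.8 and 47.9 in the parental lists, no summit in KO1 replicate 1 and 10.9 in KO1 replicate 2, and the first after, chr19:53935190-53935201, was found only in the parental lists, at 4.85 and 23.9. The first region inside, chr19:52302762-52302779, had 35.9, 62.2, 26.0 and 45.3, and the last inside, chr19:53898308-53898344, had 72.0, 62.0, 43.5 and 59.8.

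Within the clusters most LSD1 regions stood singly, at wide steps that go with the lower density. The nearest other region was a median of 29.5 kb away in the short-arm cluster and 20.3 kb away in the long-arm cluster, against 4.51 kb in the rest of chromosome 19. Of the 88 cluster regions, 65 (73.9%) were at least 10 kb from any other, compared with 26.1% in the rest of the chromosome. The share was 86.4% on the short arm and 61.4% on the long arm, where 12 of 44 regions had another less than 5 kb away. Among regions found in all 4 lists, the step from one to the next had a median of 71.5 kb on the short arm and 38.2 kb on the long arm, against 19.6 kb elsewhere on the chromosome. Of the 36 short-arm steps 27 were between 20 and 150 kb, and so were 25 of the 32 long-arm steps. Elsewhere on the chromosome it was 583 of 1265 steps.

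In the 70 cluster regions found in all 4 lists, each list had exactly 1 summit, as was also so in the 1268 such regions of the rest of chromosome 19. The 4 summits spanned a median of 102.5 bp in the clusters and 109 bp in the rest, spans that the joining distance of 500 bp itself limits. When summits were joined at up to 250 bp, 59 cluster regions were found in all lists. The tightest was the region chr19:20163047-20163050 on the short arm, whose 4 summits lay within 3 bp. The widest, on the long arm, spanned 716 bp.

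Windows of 250 kb showed how uneven the short-arm cluster was. Its 18 windows held a median of 2.5 regions (range 0 to 6), and 4 were empty. All 4 lay in 1 stretch of 1198 kb, between chr19:22235277 and chr19:23433221, in which no list had a summit. Whether reads can be placed there was not examined. Before this stretch the short-arm cluster held 11.1 regions per Mb, and after it 19.6. These values count regions of any list, unlike the densities per library above. The 6 full windows of the long-arm cluster held a median of 7 regions (range 3 to 11). The densest, chr19:53050000-53299999, held 11 regions of which 8 were in all 4 lists, and the emptiest, chr19:52800000-53049999, directly before it, held 3. The longest long-arm stretch without a summit was 137 kb, from chr19:53700319 to chr19:53836843. In the rest of the chromosome, where windows held a median of 11 regions, the longest such stretch within the counted length was 1132 kb.

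**Figure D2:**
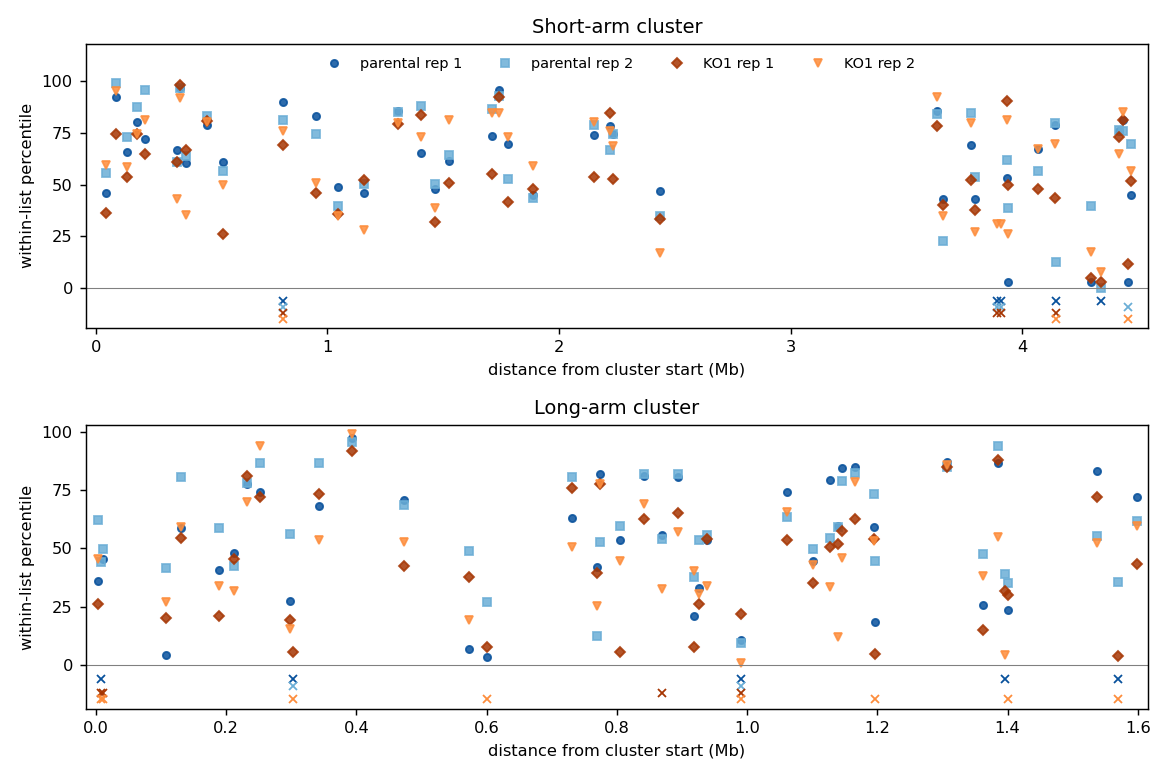
Within-list percentile of each LSD1 region (y axis) against its distance from the cluster's first base in Mb (x axis) for the short-arm and the long-arm cluster, with 1 symbol per library and a cross below 0 where a library had no summit in the region. Short-arm regions leave a stretch of 1198 kb empty in all 4 libraries, and the crosses are few in both clusters.

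Most cluster regions were found in each of the 4 lists. All 4 had a summit at 70 of the 88 regions (79.5%), 37 of 44 on the short arm (84.1%) and 33 of 44 on the long arm (75%). The share was 53.3% in the rest of chromosome 19 and 52.6% over all chromosomes. A further 8 cluster regions were in 3 lists, 2 were in 1 list of each genotype, and 7 (7.95%) were in 1 list only, against 23.2% in the rest of the chromosome. Regions are not replicates, so these shares are given without a test.

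Hardly any region belonged to 1 genotype. Of the 79 cluster regions that both libraries of 1 genotype held, 78 (98.7%) also appeared in the other genotype, in 1 library or both, against 91.3% in the rest of chromosome 19 and 89.2% over all chromosomes. The only one that both parental libraries held and both KO1 libraries lacked was chr19:52310615-52310641 near the left end of the long-arm cluster, with percentiles of 45.3 and 49.9. No cluster region showed the reverse. The background for such parental-only regions was 6.49% of regions in the rest of the chromosome and 5.84% over all chromosomes, and for KO1-only regions it was 2.18% and 4.99%. Both cluster counts lay below the background, and with 79 regions they are too few to rank the genotypes by.

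Regions that were missing from some lists were mostly weak ones. The mean percentile of the 18 regions not found in all lists had a median of 23.7, compared with 63.0 for the 70 found in all. The strongest of the 18, chr19:20607187-20607245 on the short arm, was missing only from KO1 replicate 1, and that library had a summit of its own 553 bp further on, at percentile 69.1. When summits were joined at up to 1000 bp, the pair became 1 region found in all lists. Of the 8 regions found in 3 lists, 3 lacked parental replicate 1, 2 lacked KO1 replicate 1 and 3 lacked KO1 replicate 2.

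**Figure D3:**
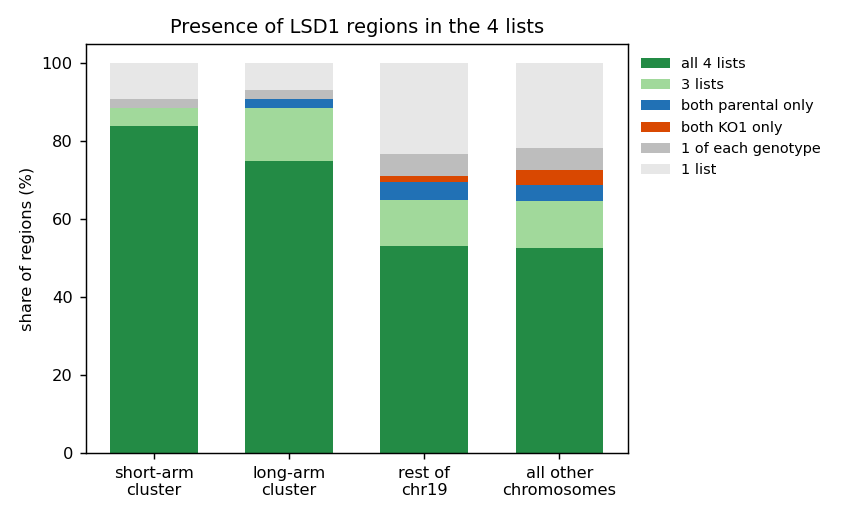
Share of LSD1 regions (y axis, percent) by the lists they were found in, for the short-arm cluster (44 regions), the long-arm cluster (44 regions), the rest of chromosome 19 (2380 regions) and the other chromosomes (65680 regions). Regions found in all 4 lists make up 84.1% and 75% of the clusters and 53.3% of the rest of chromosome 19, and neither cluster has a region found in both KO1 lists alone.

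The strength of a summit was taken from the peak caller's −log10 value as a percentile of its library's list, in which the strongest summit has 100, because that value depends on the depth of the library and the depth is unknown here. In the parental lists the cluster regions had a median percentile of 64.2 and 61.4, and in the KO1 lists of 52.1 and 53.4. The rest of chromosome 19 had 52.8 and 52.7 in the parental lists and 53.8 and 55.5 in the KO1 lists. The clusters were thus 11.4 and 8.70 percentile points above the rest in the parental libraries and −1.71 and −2.03 points from it, that is below it, in the KO1 libraries. Over the 4 libraries the difference was 4.08 ± 6.96 (SD; exact sign-flip permutation, two-sided, p = 0.5), so no difference in strength between both clusters together and the rest was shown. The direction of this difference turned when percentiles were taken among regions found in all 4 lists only, to −6.43, and when only the upper 50% of each list was kept, to −10.5. Taken alone, the short-arm cluster differed from the rest by 14.3, 15.5, −1.11 and 11.8 points (mean 10.1, exact sign-flip permutation p = 0.25). For the long-arm cluster it was 5.72, 3.36, −9.33 and −9.90 points (mean −2.54, exact sign-flip permutation p = 0.5). Both clusters together stood above the other chromosomes by 14.2, 11.5, 2.18 and 3.30 points (exact sign-flip permutation p = 0.125). The short-arm cluster alone did so by 17.1, 18.3, 2.77 and 17.1 points (exact sign-flip permutation p = 0.125). The long-arm cluster did not, at 8.57, 6.13, −5.44 and −4.57 points (mean 1.18, exact sign-flip permutation p = 0.75), below them in both KO1 lists.

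Very strong regions, those at or above percentile 90 in each list, were 2 of the 70 found in all lists (2.86%). The share was 7.89% in the rest of chromosome 19 and 6.40% over all chromosomes, and 2 regions are too few to tell the clusters from these. Counted list by list, regions at or above percentile 90 were also too few to tell the clusters apart. On the short arm there were 4, 4, 3 and 3 (10.3%, 10%, 7.5% and 7.32%). On the long arm there were 1, 2, 1 and 2 (2.56%, 4.76%, 2.5% and 5.56%). In the rest of the chromosome the share was 11.9%, 12.3%, 12.2% and 12.4%. At or above percentile 50 in each list were 34 of 70 (48.6%), near the 52.1% of the rest of the chromosome, and 11 of the 70 were below percentile 50 in each list.

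The 2 very strong regions lay 1 in each cluster. On the short arm it was chr19:20163047-20163050, the region with the tightest summits, at 96.8, 96.8, 98.1 and 91.7. On the long arm it was chr19:52693014-52693084, at 97.5, 96.0, 91.9 and 99. In both, the genotypes overlapped, and KO1 differed from parental by −1.87 and −1.28 points, less than the SD of the KO1 libraries, 4.54 and 5.01.

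The next strong regions of the short arm differed in how far their libraries spread. The region chr19:21541714-21541761 had percentiles of 95.7, 92.9, 92.5 and 84.6, with both KO1 values below both parental ones. At chr19:19887337-19887394 the values were 92.3, 99.2, 74.3 and 95.1, and the low KO1 replicate 1 stood alone. The region chr19:23433221-23433238, with 85.4, 84.4, 78.3 and 92.6, was the first after the empty stretch of 1198 kb. The fifth was chr19:21105980-21106011, at 85.8, 85, 79.3 and 79.6, where the libraries of a genotype lay within 1 point of each other and KO1 differed by −5.93 points on average. The weakest short-arm region of all lists, chr19:24097620-24097955, had 3.05, 39.7, 5.12 and 17.3, a spread within the parental pair that was wider than any difference between the genotypes.

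Among strong long-arm regions, replicate spread varied widely. The second strongest, chr19:53606776-53606800, was also the steadiest, at 87.1, 84.8, 84.9 and 85.9. The region chr19:52552150-52552577 had 74.4, 86.6, 72.1 and 94.1, and chr19:53685757-53686237 had 86.7, 94.0, 88.0 and 54.9, where KO1 replicate 2 alone was low. At chr19:53466195-53466253, with 84.8, 82.5, 62.8 and 78.7, both KO1 values were below both parental ones. The weakest long-arm region of all lists, chr19:52407896-52408329, ranged from 4.09 to 41.8 in the parental lists and from 20.2 to 27.0 in the KO1 lists.

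The comparison of parental with KO1 cells asks whether LSD1 sits differently in these clusters when RCOR2 is targeted. The number of LSD1 regions was nearly equal. The density of both clusters was 13.1 ± 0.464 per Mb in parental and 12.9 ± 0.348 in KO1 libraries (SD, n = 2 each), a difference of −0.246 that was smaller than either SD (exact permutation, two-sided, p = 0.667, where 0.333 is the smallest p that 2 libraries against 2 can give). For the short arm the difference was 0.222 per Mb and for the long arm −1.56 per Mb, each with an exact permutation p of 0.667. In the rest of chromosome 19 it was −3.94 per Mb, with parental replicate 2, the longest list, standing highest at 40.7. Relative to the rest of the same list, the log2 ratio of density was −1.46 and −1.60 in the parental and −1.37 and −1.43 in the KO1 libraries, a difference of 0.13 (exact permutation p = 0.333). With the upper 50% of each list the difference was −0.21.

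The percentiles of cluster regions were lower in KO1, with no overlap between the groups. The median over both clusters was 62.8 ± 2.0 in parental and 52.7 ± 0.964 in KO1 libraries (SD, n = 2 each), a difference of −10.1 points, and no p under 0.333 was possible in this exact permutation test. In the long-arm cluster the medians were 58.6 and 56.0 in parental against 44.4 and 45.6 in KO1, a difference of −12.3 points with no overlap. In the short-arm cluster they were 67.1 and 68.2 in parental against 52.7 and 67.2 in KO1, a difference of −7.71 points (exact permutation p = 0.667). Without KO1 replicate 1 the short-arm difference was −0.42 and without KO1 replicate 2 it was −15.0, whereas the long-arm difference stayed between −13.6 and −11.0 whichever library was left out. Of the 37 short-arm regions in all lists, KO1 replicate 2 was below parental replicate 1 in 19. In the rest of chromosome 19 this was so in 630 of 1268.

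The rest of chromosome 19 moved the other way by this measure, which takes all regions of each list, a set that differs between libraries. Its median was 52.8 ± 0.117 in parental and 54.6 ± 1.19 in KO1 libraries, a difference of 1.84 points, and on the other chromosomes the difference was 0.0507. Over the 1268 regions found in all lists, however, the rest was also lower in KO1, by a median difference of −1.96 points, against −9.46 in the clusters. By the medians over all regions, measured against the rest of the same list, the clusters were lower in KO1, with a mean difference of −11.9 points. The values were 10.0 ± 1.88 in parental and −1.87 ± 0.229 in KO1 (n = 2 each), again without overlap and with the smallest exact permutation p of 0.333. The short-arm cluster stood above the long-arm cluster in all 4 libraries, by 8.54, 12.2, 8.21 and 21.7 points (mean 12.6, exact sign-flip permutation p = 0.125). This gap did not separate the genotypes (difference 4.60 points, exact permutation p = 1).

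Region by region, the KO1 mean was lower than the parental mean in 56 of the 70 cluster regions found in all lists (80.0%), 28 of 37 on the short arm and 28 of 33 on the long arm. In the rest of chromosome 19 it was lower in 59.2%, and over all chromosomes in 52.6%. The median difference between the means was −9.46 points in the clusters, −7.86 on the short arm and −12.6 on the long arm, against −1.96 in the rest of the chromosome and −0.578 over all chromosomes. Between replicates of 1 genotype, a cluster region differed by a median of 8.89 points in parental and 13.2 points in KO1. The genotypes differed by a similar 10.3 points in either direction, but this is between means of 2 libraries, which vary less than single ones. In the rest of chromosome 19 the corresponding values were 8.65 and 8.63 points between replicates and 7.20 points between genotypes. Leaving out parental replicate 2 brought the median over both clusters to −6.08 points, and leaving out KO1 replicate 1 brought that of the short arm to −3.73. In each such run at least 50 of the 70 regions were lower in KO1.

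Both KO1 values were below both parental values in 27 of the 70 regions (38.6%), 13 on the short arm and 14 on the long arm. The background of this order was 25.4% in the rest of chromosome 19 and 22.4% over all chromosomes. Both KO1 values were above both parental values in 2 of the 70, where the background was 13.1% and 19.6%, and in the other 41 the groups overlapped. Of the 27 the differences ranged from −31.7 to −5.76 points, with parental means from 41.0 to 94.3.

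The 3 largest of these differences came from regions of medium to high parental strength. At chr19:53104371-53104496 in the densest long-arm window the percentiles were 53.7 and 59.7 in parental against 5.29 and 44.7 in KO1, a mean difference of −31.7 points in which KO1 replicate 1 was far below KO1 replicate 2. It was −12.0 points without KO1 replicate 1 and −51.4 points without KO1 replicate 2. At chr19:20748401-20748667 on the short arm they were 83.4 and 74.5 against 46.2 and 50.9, a difference of −30.4 points with close replicates. At chr19:53446027-53446085 on the long arm they were 84.4 and 79.0 against 57.7 and 45.8, a difference of −30.0 points. Each has an exact permutation p of 0.333, the smallest possible. They were chosen for groups that do not overlap, which fixes this p, so it adds nothing.

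The 2 regions of the opposite order were both on the short arm. At chr19:23732454-23732580 the percentiles were 53.0 and 61.9 in parental and 90.2 and 81.4 in KO1, a difference of 28.3 points. Only 4.91 kb further along lay another region found in all lists, chr19:23737490-23737651, with 2.84 and 39.0 in parental and 50.1 and 26.2 in KO1, where the groups overlapped. At chr19:21688336-21688545 the percentiles were 45 and 43.8 in parental and 48.1 and 59.1 in KO1, a difference of 9.24 points, which was 3.75 without KO1 replicate 2 and 14.7 without KO1 replicate 1. Both non-overlapping regions have an exact permutation p of 0.333, which their choice for non-overlapping groups again fixes.

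Each of the 4 pairs of a KO1 with a parental library gave more cluster regions lower in KO1 than higher. KO1 replicate 1 was below parental replicate 1 in 52 of 70 cluster regions and below parental replicate 2 in 54. KO1 replicate 2 was below the same parental libraries in 44 and in 52. In the rest of chromosome 19 the same 4 counts were 640, 807, 630 and 835 of 1268. Over all chromosomes they were 16517, 20655, 16501 and 20598 of 35861. The medians of the 4 differences in the clusters were −7.16, −13.2, −6.06 and −10.2 points. Over all chromosomes, shared regions ranked a median of 3.78 points higher in parental replicate 2 than in parental replicate 1, and the same 4 medians over all chromosomes were 1.10, −2.27, 1.24 and −2.26 points. Within a genotype the replicates of the cluster regions differed by a median of 2.22 points in parental and 4.19 points in KO1, replicate 2 minus replicate 1.

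Lower KO1 percentiles were found among strong and weak cluster regions. Among cluster regions with a mean percentile of at least 50 over the 4 libraries, the median difference was −9.42 points and 37 of 45 were lower in KO1, and among weaker ones it was −10.2 points with 19 of 25 lower. In the rest of chromosome 19 the corresponding medians were −1.11 and −6.57 points, and 56.2% and 65.3% of regions were lower in KO1.

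Stretches of 2 Mb elsewhere give a scale for the clusters' medians, with no test attached. Of 23 such stretches in the rest of chromosome 19 with at least 10 regions found in all lists, the median difference ranged from −7.76 to 1.17 points and was below 0 in 19. The lowest was chr19:36000000-37999999. Which of these stretches hold ZNF genes was not examined. None was as low as the long-arm cluster, also when any 1 library was left out of stretches and clusters alike. None was as low as the short-arm cluster either, but by a narrow margin, −7.76 against −7.86 points. Without KO1 replicate 1, 5 of the 23 stretches were as low as the short-arm cluster, which was then at −3.73, and without parental replicate 1 it was 2 of 23. Of 1085 stretches on the other chromosomes, whose medians ranged from −18.3 to 21.2 points, 53 (4.88%) were as low as the short-arm cluster and 5 (0.461%) as low as the long-arm cluster. Values of the clusters' size thus occur elsewhere in the genome.

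Close to the clusters the difference was not uniform. The 1 Mb before the short-arm cluster had a median difference of −0.763 points over 26 regions, and the 1 Mb before the long-arm cluster one of −4.37 points over 13 regions. The 1 Mb after the long-arm cluster had −7.45 points over 27 regions, with 19 lower in KO1, close to the −7.86 points of the short-arm cluster. Inside the short-arm cluster, the 25 regions of all lists before the empty stretch of 1198 kb had a median of −9.42 points with 21 lower in KO1, and the 12 after it had −3.75 points with 7 lower.

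**Figure D4:**
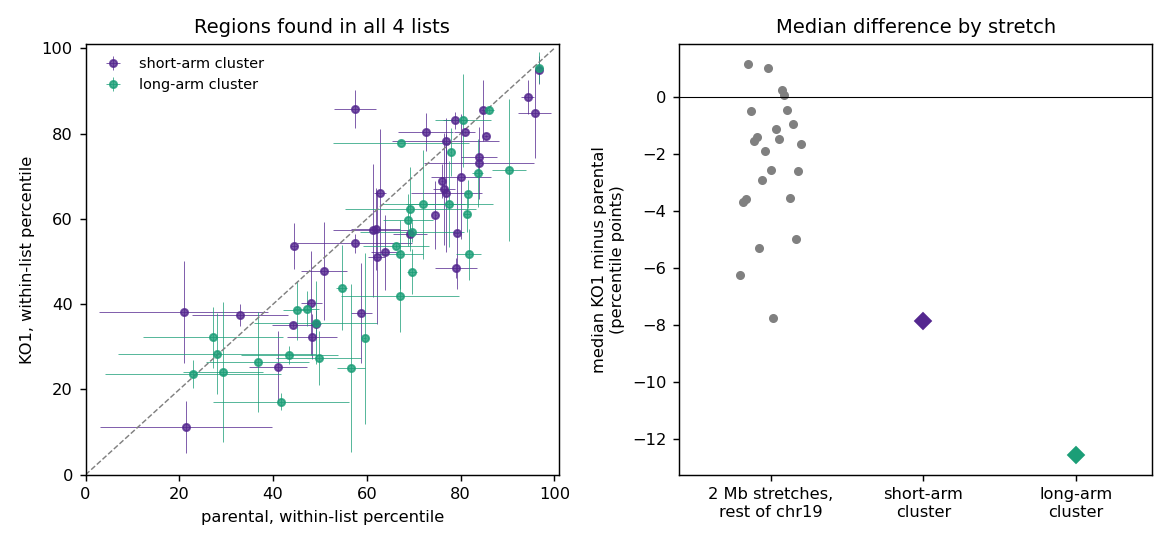
Left, mean within-list percentile of KO1 (y axis) against parental (x axis) for the 70 cluster regions found in all 4 lists, where bars span the 2 libraries of a genotype and the dashed line marks equal values, and 56 regions lie below it. Right, median KO1 minus parental difference in percentile points for the 23 stretches of 2 Mb in the rest of chromosome 19 (jittered sideways) and for each cluster, at −7.86 on the short arm and −12.6 on the long arm.

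The order of the cluster regions by strength was largely kept between libraries. Over the 70 regions found in all lists, Spearman's rho ranged from 0.709 to 0.768 for the 6 pairs of libraries, with no clear gap between pairs of the same and of different genotype, as 0.762 for the parental pair, 0.709 for the KO1 pair and 0.741 to 0.768 for the mixed pairs show. In the 1268 such regions in the rest of the chromosome it was 0.864 for the parental and for the KO1 pair and 0.812 to 0.836 for the mixed pairs, so that there the pairs of 1 genotype stood above the mixed ones. These correlations are across regions of the same libraries and are given as a description.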

How the data were processed

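LSD1 CUT&RUN summit lists were used for 2 parental and 2 RCOR2-KO1 MDA-MB-231 libraries. Per the submitters' processing notes, FastQC 0.11.2, Bowtie2 2.3.3.1, Picard and MACS2 2.1.0 were used with hg19. The authors called peaks in each library against IgG and deposited 1 summit of 1 bp per peak with its −log10 p or q value, which of the 2 is not given in the sources used here. The lowest value per list was 1.31 to 1.40, so weaker peaks are missing. List length depends on sequencing depth, which is unknown, and no counting interval is given. The IgG libraries have no file here.

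The lists held 47354 and 54467 (parental) and 49586 and 50119 (KO1) summits, and 1 summit on chromosome Y was left out. The software was scipy 1.17.1, numpy 2.4.6 and pandas 2.3.3 in Python 3.11.15, with matplotlib 3.10.9 for figures. A percentile is the share of a list at or below a summit's −log10 value. Joining was tested on simulated lists of well separated regions with closely set summits, which did not test neighbours near the joining distance of 500 bp. Genotypes were compared by exact permutation of library labels, and densities or medians within libraries by exact sign flips, both two-sided. Of 18 sign-flip tests the lowest Benjamini-Hochberg adjusted p was 0.173, and of 17 genotype tests 0.630.

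Regions were named by rule: in each cluster the 5 strongest and the weakest in all lists, the 3 highest and 3 lowest non-overlapping genotype differences, regions of 1 genotype, the longest empty stretch, and the densest and emptiest window of 250 kb. Boundary regions, those described for their spacing, and chr19:23737490-23737651 were added. The bounds, regions and lists were chosen with earlier results of these data known. Alternatives were joining at 250 or 1000 bp, counting summits, only the upper 50% of a list, lists shortened to the length of the smallest, other lengths of the rest, percentiles over shared regions, each library left out (in stretches of 2 Mb added after seeing the data), and the replicate number as a block. The labels give replicate numbers but do not say whether libraries of the same number were prepared together. Replicate 2 minus 1 correlated between the genotypes at r = 0.0930 over the 70 cluster regions, which cannot settle this.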

Additional observations from a re-analysis of the deposited data

How the results depend on the processing

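The lower density of the clusters kept its direction in each alternative run, at 0.362 to 0.418 of the rest of chromosome 19 with all libraries and 0.354 to 0.373 with 1 left out. The lower KO1 percentile also kept its direction, at −12.0 to −8.08 points with all libraries and −11.5 to −8.64 points with 1 left out. With only the upper 50% of each list, the KO1 minus parental log2 density ratio was −0.21 (0.13 otherwise), the clusters differed from the rest by −10.5 points in median percentile, 34 regions were in all lists and 3 were parental-only. The clusters were also below the rest, at −6.43 points, with percentiles among regions of all lists, and at 6.67 points above it with regions at least 10 kb from the next, an alternative chosen after seeing the data. The causes were not tested.

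Leaving out 1 library gave a share found in both genotypes of 92.6% to 96.3% (lowest without KO1 replicate 1), 2 to 4 parental-only regions and 0 to 3 KO1-only regions, where presence then rests on 1 library of a genotype, which is assumed to vary like the others. Such runs left the density log2 ratio at 0.06 to 0.19 and clusters minus rest at 1.66 to 6.12. The replicate block gave the same −10.1 points and 0.13, with an exact permutation p of 0.5, the smallest for 2 pairs. It is equal by construction and changed no call.

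The KO1 minus parental difference turned in some alternatives at 7 named regions, all with overlapping groups. At chr19:52407896-52408329 (0.709) it was −0.467 with percentiles among regions of all lists. With 1 library left out, it ranged there from −18.1 to 19.5, from −1.65 to 0.565 at chr19:53606776-53606800, from −8.45 to 13.6 at chr19:52552150-52552577, from −28.5 to 8.17 at chr19:24097620-24097955, from −4.83 to 2.26 at chr19:52693014-52693084, from −5.08 to 1.34 at chr19:20163047-20163050 and from −6.53 to 7.70 at chr19:23433221-23433238. Without KO1 replicate 1, the difference at chr19:53104371-53104496 was −12.0 in place of −31.7.

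With 2 libraries against 2 no exact test can pass a threshold of 0.05, and without peak widths, fold enrichment or depth a lower percentile says only that a region ranked lower in its own list.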
